A study of Zea mays with 72 samples.

Results

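The genes described here are the 100 maize genes whose level in untreated leaf 5 stood farthest above both neighbouring leaves, the older leaf 4 and the younger leaf 6. They were chosen from the control libraries alone. Each deposited count was divided by its library's total and scaled to CPM, a unit corrected for depth and not for gene length, the 6 control libraries of each leaf were averaged with 0.5 added, and genes with a leaf 5 mean of at least 10 CPM were ranked by the smaller of the leaf 5 to leaf 4 and leaf 5 to leaf 6 ratios. The 100 highest were taken from 11378 genes at that minimum and from 32235 genes with values in all. Every library was from the inbred line B73, grown to the V4 stage. Leaf 4, the mature leaf, and leaves 5 and 6, both immature, were detached and cut under water, rested in purified water for at least 2 h, and then held in glass cylinders under clean airflow for at least 2 h more. The sheath of leaf 4 was taken off as an extra step, so leaf position and this step cannot be told apart. Detached leaves were left as controls or exposed to the leaf volatile (Z)-3-hexenyl acetate (HAC) from dispensers for 30 min or 2 h. Others were given the plant elicitor peptide ZmPep3 at 1 µM in their water for 2 h, which makes 12 groups of 6 biological replicates. Whole leaves were harvested for RNA sequencing.

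A maize leaf turns from a tissue that imports sugar, nitrogen and metals into one that exports sugar as it emerges and greens. Grasses take up iron by secreting phytosiderophores, small chelators made from nicotianamine, and by importing the iron-loaded chelator through Yellow Stripe 1 (ys1), a transporter named for the yellow-striped leaves of its mutant. Ferritins store iron and are known to be made when iron is plentiful. HAC is a green leaf volatile released by wounded leaves, and elicitor peptides such as ZmPep3 are signals of damage, and both are known to prime or induce defence in maize.

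Library totals ran from 26212027 to 31052273 counts. The markers of leaf type and age did not share one order of leaves. Mean control levels of the C4 enzyme gene pep1 were 2969 CPM in leaf 4, 9032 in leaf 5 and 10261 in leaf 6. The secondary-wall cellulose synthase gene cesa10 was at 24.7, 159 and 183 CPM in the same order. The C4 genes me3 and rbcs1, the wall gene cesa11 and the ligule genes lg1 and lg2 were also highest in leaf 6, and Ppdk1 was highest in leaf 4. Means were highest in leaf 5 for bk2, a gene of stalk cell walls (54.7, 108 and 73.8 CPM in leaves 4, 5 and 6), for CesA12 (18.7, 106.5 and 101.2 CPM) and for mdh6 (1349, 1409 and 1003 CPM). In each of these 3 the leaf 5 libraries overlapped those of a neighbouring leaf, and the part of wall tissue in the results was not tested. The meristem gene kn1 was at or near 0, with a highest library value of 0.238 CPM. In whole leaves, fewer cells of a type and less RNA per cell cannot be told apart for any gene named here.

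All 100 genes were found in the RefSeq gene table, 99 as protein-coding genes and LOC100381814 as a transcribed pseudogene. A name of more than a locus number could be given to 13 of them. The named genes were the transporter genes ys1, GT1 and TIP4-4, the asparagine synthetase gene asn2, the beta-amylase gene BMY1 and the alcohol dehydrogenase gene adh1. From phenylpropanoid and flavonoid metabolism came chi1, sm2 and Laccase-17. For irl1, isoflavone reductase-like by name only, no reaction is stated. The others were the beta-tubulin gene tub4, a gene listed as calmodulin, and sfp1. The remaining members are given by locus number and no role is stated for them. LOC100279082 and LOC103651104 are next to each other in the gene order of that table, as are LOC100281647 and LOC100284641.

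The control values that chose these genes are given as a description with no test. The smaller of the leaf ratios ran from 1.64 to 18.4 with a median of 2.01, and 52 of the 100 genes reached 2. Leaf 4 was the nearer neighbour in 42 genes and leaf 6 in 58. LOC100383726 led with 18.4, followed by ys1 with 15.0, LOC100502313 with 9.40, LOC103636279 with 9.12 and LOC107548101 with 7.52. At the lower edge, calmodulin at 1.642 and LOC100191609 at 1.640 were inside, and LOC100285038 at 1.635 and LOC107403162 at 1.634 were outside, so that the limit runs through closely spaced genes. Mean leaf 5 control levels ran from 10.03 CPM for LOC100191484 to 953 CPM for GT1, with a median of 37.8. The spread between the 6 leaf 5 control libraries was wide for some genes. The coefficient of variation was 50% or more in 15 of them, with asn2 at 118%, and under 20% in 33.

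ys1 (LOC541800) was read at 1098, 453, 240.1, 726, 840.5 and 421 CPM in the leaf 5 control libraries, a mean of 629.8 ± 316 CPM (SD, n = 6). In leaf 4 controls it had a lowest value of 17.02, a median of 34.0 and a highest of 62.4 CPM, and in leaf 6 controls 9.72, 41.4 and 77.6 CPM. The lowest leaf 5 control thus lay above every control of the other leaves. In HAC 30 min the 6 leaf 5 values were 80.1, 380.0, 58.2, 77.4, 263 and 725 CPM, and the lowest of them lay under the highest leaf 4 value of 116 CPM and the highest leaf 6 value of 189 CPM. After 2 h of HAC the leaf 5 values were 1126, 286, 1081, 189.8, 395 and 587 CPM, all above leaf 4, where the highest was 77.6 CPM, but overlapping leaf 6, which had a median of 202 and a highest of 336 CPM. After ZmPep3 leaf 5 ran from 335 to 1451 CPM, above every leaf 4 and leaf 6 library, whose highest values were 56.5 and 314 CPM.

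GT1 (LOC542140), a glutathione transporter, had the highest leaf 5 mean of the 100 on the CPM scale. Its leaf 5 controls were 1563, 790.2, 597, 867, 1194 and 710.3 CPM (953 ± 360.3, SD, n = 6), against 109 to 321 CPM for the leaf 4 controls and 166 to 256 CPM for those of leaf 6. The leaf 5 library means were 662 ± 279 CPM in HAC 30 min, 994 ± 425 in HAC 2 h and 895 ± 347 after ZmPep3 (SD, n = 6). Leaf 4 medians in those groups were 185, 137 and 79.7 CPM and leaf 6 medians 269, 381 and 309 CPM. LOC100383726, first in the ranking, had leaf 5 controls with a lowest value of 22.6, a median of 97.7 and a highest of 139.7 CPM, while no leaf 4 control passed 3.40 CPM and no leaf 6 control passed 6.69 CPM.

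**Figure D1:**
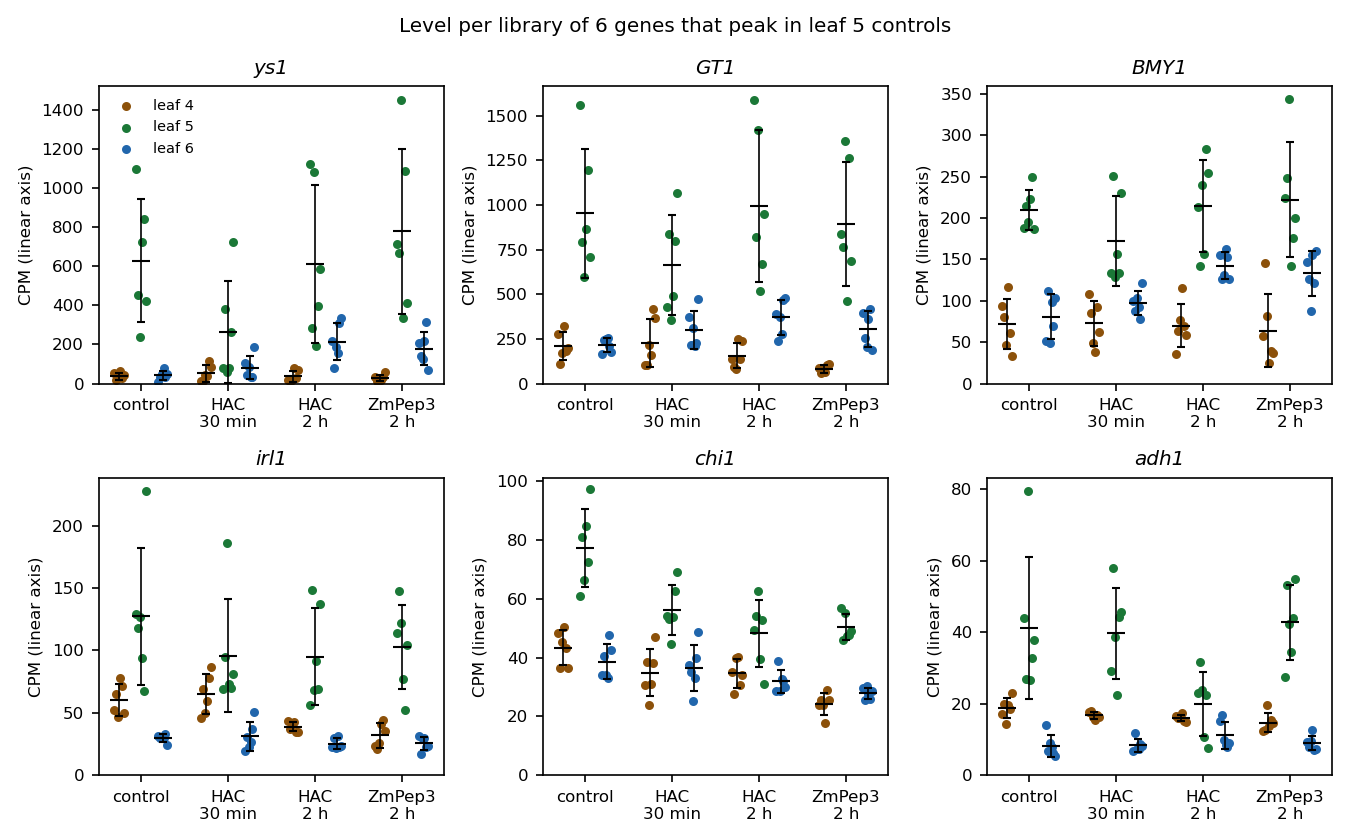
CPM of 6 of the 100 genes (ys1, GT1, BMY1, irl1, chi1 and adh1) in each library, by leaf and treatment; points are libraries and bars are the mean ± SD of 6. In ys1 the leaf 5 HAC 30 min libraries reach down to 58.2 CPM, into the range of leaf 6, while all 6 leaf 5 libraries after ZmPep3 are at 335 CPM or more.

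Whether the genes also stood highest in leaf 5 in leaves that had not been used to choose them was asked in the treated libraries. Most did, and more of them passed against leaf 4 than against leaf 6. By the quasi-likelihood test of edgeR, with p-values adjusted (Benjamini-Hochberg) over 25558 genes and a threshold of 0.05, 92 of the 100 genes were higher in leaf 5 than in leaf 4 in HAC 30 min, where 29.6% of all genes tested were higher. The count was 90 in HAC 2 h (29.1% of all genes) and 93 after ZmPep3 (31.2%). Against leaf 6 the counts were 74 in HAC 30 min (21.7%), 67 in HAC 2 h (21.6%) and 60 after ZmPep3 (20.3%). None of the 100 was lower in any of these 6 comparisons, where 25.0%, 25.6% and 24.2% of all genes were lower than in leaf 4, and 22.6%, 22.7% and 23.2% lower than in leaf 6. The median log2 difference of the 100 from leaf 4 was 1.5, 1.62 and 1.94, and from leaf 6 it was 1.04, 0.86 and 0.83.

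Higher than in both leaves at once were 71 genes in HAC 30 min (2.46% of all genes), 60 in HAC 2 h (1.69%) and 57 after ZmPep3 (2.34%). In all 3 treatments this held for 35 of the 100, against 131 of all genes tested (0.513%). Those 35 included ys1, GT1, adh1, irl1 and chi1. With only the groups of a contrast fitted, adh1 did not pass in HAC 2 h against either leaf. The same held for ys1 in HAC 30 min against leaf 6. At the other end, 16 genes were above both leaves in no treatment, among them asn2 and Laccase-17 and, from near the top of the ranking, LOC103636279 and LOC100274767. For these last 2 the leaf 4 comparison passed in every treatment while the leaf 6 comparison did not, for example LOC103636279 after ZmPep3 with a log2 difference from leaf 6 of 1.67 ± 0.73 (SE, adjusted p = 0.0581). LOC103635019 was the opposite case. It differed from leaf 6 by 4.05, 4.36 and 2.97 on the log2 scale and from leaf 4 by only 0.60, 0.20 and 0.77, none of which passed.

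As a description, the smaller ratio had a median of 1.71 in HAC 30 min, 1.62 in HAC 2 h and 1.80 after ZmPep3, and exceeded 1 in 96, 95 and 96 of the genes. Complete separation of the 6 leaf 5 libraries above all 12 libraries of the other leaves was seen in 21 genes in HAC 30 min (0.518% of all genes at the same minimum), 29 in HAC 2 h (0.717%) and 39 after ZmPep3 (0.973%). Repeating the ranking within a treatment returned 54 of the 100 in HAC 30 min, 54 in HAC 2 h and 50 after ZmPep3. The lowest smaller ratios belonged to LOC100278439, at 0.492 in HAC 30 min and 0.395 in HAC 2 h, and this gene ran from 3.33 to 265 CPM among its own leaf 5 controls.

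**Figure D2:**
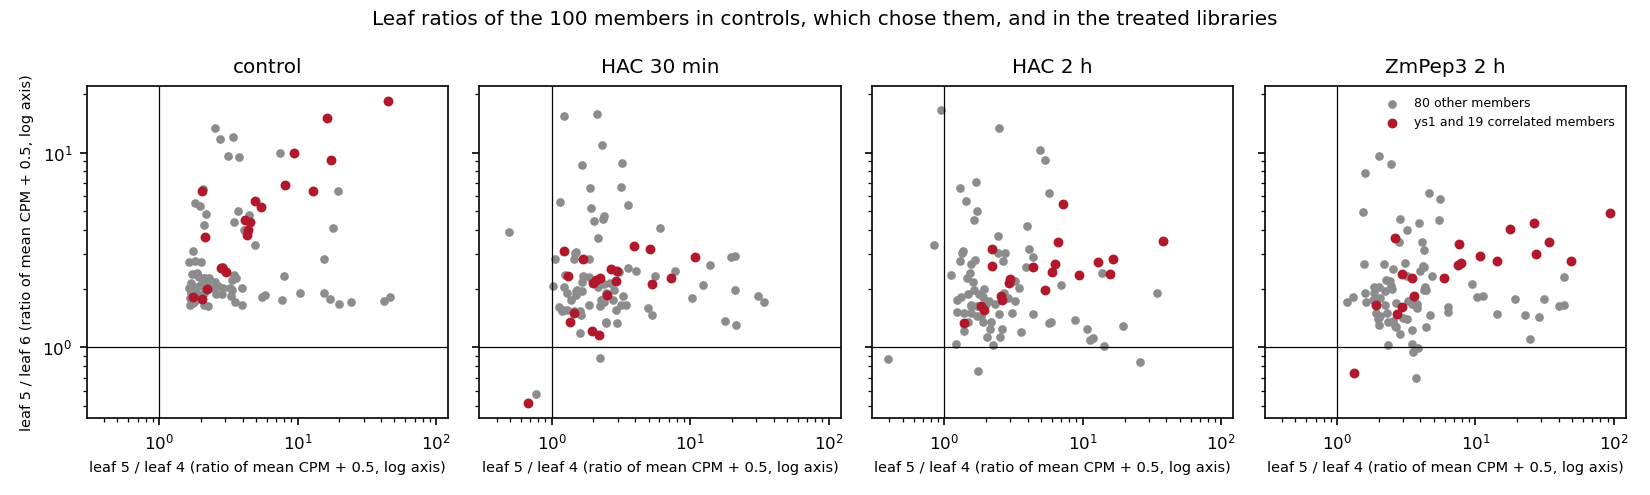
Ratio of the leaf 5 mean to the leaf 4 mean (x) and to the leaf 6 mean (y) for the 100 genes on log axes, 1 panel for each treatment; red points are ys1 and the 19 genes correlated with it at 0.8 or more, grey points the other 80. The control panel is the one that chose the genes, so all its points lie above 1 on both axes; in the treated panels 96, 95 and 96 genes do.

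For ys1 the leaf 5 level exceeded leaf 4 by 2.65 ± 0.58 on the log2 scale in HAC 30 min (SE, adjusted p = 8.72e-05), by 4.36 ± 0.62 in HAC 2 h (adjusted p = 2.05e-08) and by 4.88 ± 0.64 after ZmPep3 (adjusted p = 1.86e-09). It exceeded leaf 6 by 1.60 ± 0.56 (adjusted p = 0.0156), 1.37 ± 0.55 (adjusted p = 0.0378) and 1.99 ± 0.56 (adjusted p = 0.00292). The HAC 2 h difference from leaf 6 did not pass when leaf 5 HAC 2 h library 6 was left out. GT1 was above leaf 4 by 1.86 ± 0.32 in HAC 30 min (adjusted p = 1.67e-06) and 3.56 ± 0.35 after ZmPep3 (adjusted p = 9.36e-14), and above leaf 6 by 1.07 to 1.43. LOC100383726 was above leaf 4 in all 3 treatments, by 4.02 to 7.83, but above leaf 6 only in HAC 2 h (1.71 ± 0.65, adjusted p = 0.0279) and after ZmPep3 (2.20 ± 0.66, adjusted p = 0.00518).

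A group of the genes went up and down with ys1 from library to library within a treatment. Over the 18 treated leaf 5 libraries, none of which had chosen the genes, log2 CPM was taken as its deviation from the mean of its treatment group and correlated with that of ys1. Of the other 99 genes, 19 had a Pearson r of at least 0.8, against 37 of all 25557 genes compared (0.145%), and 14 had at least 0.9. The nearest was LOC100383726 with r = 0.976 (Spearman rho = 0.984), and r was 0.965 without the 2 libraries farthest from the median of ys1. LOC100502313 followed with r = 0.966, LOC100279082 with 0.964, LOC100272739 with 0.960 and LOC541975 with 0.945. For GT1 r was 0.941 (rho = 0.953, permutation p = 1e-05, the smallest that 100000 permutations can give, adjusted p = 0.0122 over the 25557 genes), and 0.936 without the 2 farthest libraries. The covariation was not confined to leaf 5. Over the treated libraries of leaf 4, the 19 genes had r with ys1 from 0.185 (LOC100273851) to 0.957 (GT1). High values there were not particular to the 19. LOC103626598 had 0.882 and LOC100382657 0.866 in leaf 4, with −0.022 and 0.302 in leaf 5. Over the treated libraries of leaf 6, r of the 19 ran from 0.598 (LOC103632597) to 0.965 (LOC100279082), and the highest outside the 19 was 0.580 (LOC100191609). Shares over all genes were not computed for leaves 4 and 6. Points in these correlations share a library and its depth.

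The set of ys1 and its 19 correlates held 12 of the first 20 genes of the ranking. The genes outside it ran from r = 0.797 for LOC100276826, just under the limit of 0.8, to −0.634 for LOC103651151. BMY1 reached r = 0.658 (rho = 0.674, permutation p = 0.00511, adjusted p = 0.407), adh1 0.330, asn2 −0.021 and irl1 −0.338. The genes most like ys1 that were not among the 100 were LOC542409 (r = 0.958), LOC103627335 (0.918) and LOC103650720 (0.910). Summed over the set's 20 genes, mean leaf 5 levels were 5241 CPM in controls, 3022 in HAC 30 min, 4768 in HAC 2 h and 4767 after ZmPep3. Leaf 4 sums were 1364, 1425, 1180 and 813 CPM, and leaf 6 sums 1170, 1491, 1917 and 1722 CPM. Within leaf 5, 19 of the 20 genes had a positive log2 difference between HAC 2 h and HAC 30 min, with a median of 0.62. Only 1 passed the test, where 7.03% of all genes rose. The 20 were chosen for varying together in these same libraries, so their shared sign is not 20 separate observations. For ys1 itself the difference was 1.20 ± 0.55 (SE, adjusted p = 0.139).

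**Figure D3:**
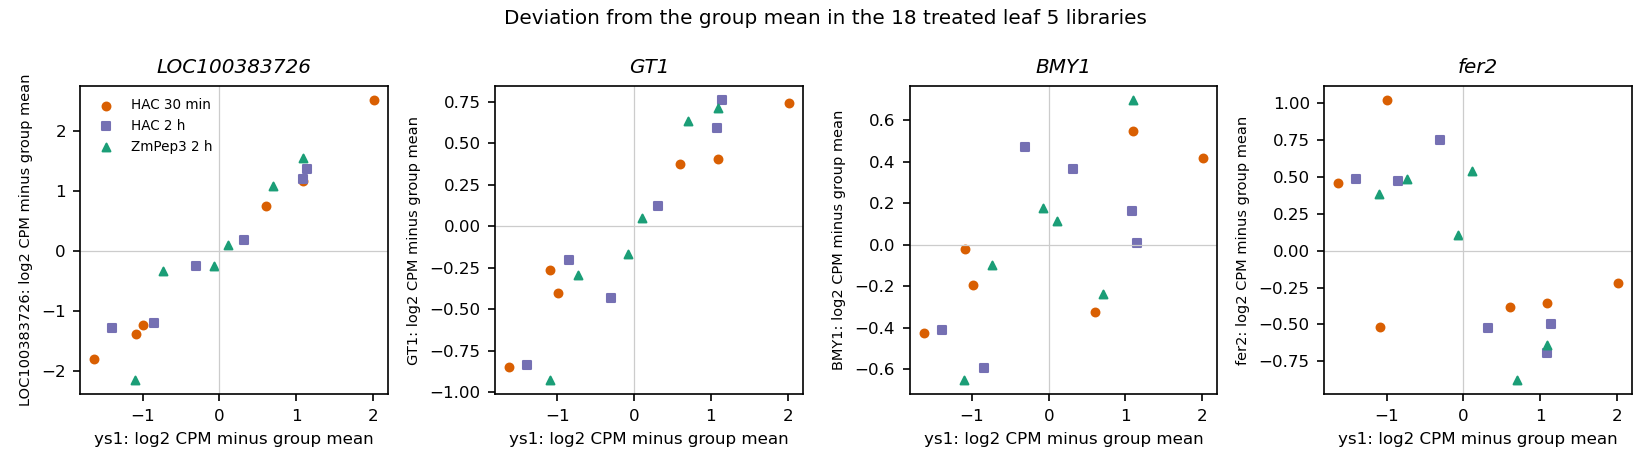
Deviation of log2 CPM from the treatment mean for LOC100383726, GT1, BMY1 and fer2 (y) against that of ys1 (x) in the 18 treated leaf 5 libraries, with markers by treatment. LOC100383726 (r = 0.976) and GT1 (r = 0.941) follow ys1 closely, BMY1 loosely (r = 0.658), and the ferritin gene fer2 has a negative r of −0.675; the values for BMY1 and fer2 did not pass adjustment over all genes (adjusted p = 0.407 and 0.382).

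Of 10 further genes of iron handling tested, none was higher in leaf 5 than in both other leaves within a treatment. Of all genes 2.46%, 1.69% and 2.34% were in HAC 30 min, HAC 2 h and ZmPep3, so none of 10 is near those shares. The list was drawn up after the data had been seen. In leaf 5 against leaf 4, 2 were higher and 3 lower in HAC 30 min (29.6% and 25.0% of all genes). The counts were 1 and 4 in HAC 2 h (29.1% and 25.6%), and 2 and 4 after ZmPep3 (31.2% and 24.2%). Against leaf 6, 4 were higher (20.3% to 21.7% of all genes) and 3 lower (22.6% to 23.2%) in each treatment. DMAS1, which encodes the enzyme that makes the phytosiderophore deoxymugineic acid, was at 14.3, 20.5 and 22.4 CPM (lowest, median, highest) in leaf 5 controls and at 50.1, 58.9 and 66.5 CPM in leaf 4 controls. In the treated leaves it was lower in leaf 5 than in leaf 4 each time (log2 differences −1.07, −1.25 and −0.48) and higher than in leaf 6 (0.49, 0.34 and 0.42). The ferritin gene fer1 had control medians of 83.8 CPM in leaf 4, 76.7 in leaf 5 and 145 in leaf 6, and fer2 of 6.40, 5.88 and 24.5 CPM.

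Both ferritin genes were lower in leaf 5 than in leaf 6 in every treatment, fer1 by log2 differences of −0.78, −1.51 and −1.28 and fer2 by −1.48, −2.11 and −2.33. Within leaf 5, both fell between HAC 30 min and HAC 2 h, with log2 differences of −0.87 ± 0.22 for fer1 (SE, adjusted p = 0.00301) and −1.19 ± 0.27 for fer2 (adjusted p = 0.000711). For fer1 and fer2 the values were −0.48 and −0.36 in leaf 4 and −0.14 and −0.55 in leaf 6. None of these passed, and no difference between leaf 5 and another leaf passed. None of the 10 correlated with ys1 past adjustment across the treated leaf 5 libraries. Of all genes, 0.141% did with a positive r and 0.0822% with a negative r. The ferritin genes had negative values, with r = −0.675 for fer2 (rho = −0.571, permutation p = 0.00436, adjusted p = 0.382) and −0.573 for fer1 (rho = −0.527, permutation p = 0.0278, adjusted p = 0.662). nas1, a nicotianamine synthase gene that no leaf 5 control held above 0.499 CPM, had the highest value, r = 0.525 (rho = 0.378, permutation p = 0.0201, adjusted p = 0.63). The others ran from −0.207 for Nramp1 to 0.339 for ysl14A.

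Among the genes of carbon and nitrogen metabolism, BMY1 (LOC542472), a beta-amylase that releases maltose from starch, had leaf 5 controls of 187, 205 and 250.2 CPM (lowest, median, highest), 33.7, 70.5 and 116 CPM in leaf 4 and 49.4, 84.1 and 111 CPM in leaf 6. In the treated leaves it stayed above leaf 4 in every treatment, by 1.55, 1.91 and 1.90 on the log2 scale. Against leaf 6 only the HAC 30 min difference of 0.76 passed (adjusted p = 0.0244), with 0.48 in HAC 2 h (adjusted p = 0.172) and 0.61 after ZmPep3 (adjusted p = 0.0773). No treatment comparison passed for BMY1.

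asn2 (LOC100192349), an asparagine synthetase, rested on an uneven group. Its leaf 5 control library 6 was at 84.5 CPM and the others at 8.43 to 28.7 CPM, while leaf 6 controls had a median of 3.64 CPM. In treated leaves it was above leaf 4 by 3.13, 3.50 and 2.15 on the log2 scale and never past the test against leaf 6. ZmPep3 leaves carried more asn2 than HAC 2 h leaves in leaf 4 (1.69 ± 0.58, SE, adjusted p = 0.0194) and in leaf 6 (2.03 ± 0.52, adjusted p = 0.00256), where it reached a median of 22.8 CPM. In leaf 5 the same difference was 0.34 ± 0.50 (adjusted p = 0.668), and neither difference between leaves passed. The leaf 4 difference of asn2 did not pass when only the groups of the contrast were fitted (1.71). Leaf 4 ZmPep3 library 6 was also apart, at 12.04 CPM with the others at 0.776 to 4.106 CPM.

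adh1 (LOC542363), the alcohol dehydrogenase of anaerobic metabolism, moved with treatment in leaf 5. Its leaf 5 values (lowest, median, highest) were 26.6, 35.3 and 79.6 CPM in controls, 22.5, 41.4 and 58.1 in HAC 30 min, 7.62, 22.7 and 31.7 in HAC 2 h and 27.6, 43.2 and 54.8 after ZmPep3. Leaf 4 medians stayed between 14.2 and 19.1 CPM and leaf 6 medians between 7.24 and 9.40 CPM. Between HAC 30 min and HAC 2 h adh1 fell by 1.03 ± 0.22 on the log2 scale in leaf 5 (SE, adjusted p = 0.000425), and after ZmPep3 it was 1.07 ± 0.22 above HAC 2 h (adjusted p = 0.000146). In leaf 4 these differences were −0.06 ± 0.22 and −0.003 ± 0.23, and in leaf 6 0.46 ± 0.23 and −0.35 ± 0.23, none of which passed. The leaf 5 response differed from that of leaf 6 in both comparisons (−1.49, adjusted p = 0.00537, and 1.41, adjusted p = 0.0149) and from that of leaf 4 in the second (1.07, adjusted p = 0.0246). The difference from leaf 4 did not pass without leaf 5 HAC 2 h library 6, where it was 0.91. When only the groups of a contrast were fitted, neither difference from leaf 6 passed (−1.497 and 1.465), nor did the fall within leaf 5 (−1.018).

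Of the genes of phenylpropanoid and flavonoid metabolism, chi1 was above both leaves in every treatment, as was irl1. The genes sm2 and Laccase-17 were firmly above leaf 4 alone. irl1 (LOC542717), an isoflavone reductase-like gene, had leaf 5 controls of 67.1, 123 and 228 CPM, leaf 4 controls of 46.5, 58.3 and 78.1 and leaf 6 controls of 24.4, 29.8 and 33.0 CPM (lowest, median, highest). In the treated leaves its log2 differences were 0.87 to 1.80 from leaf 4 and 1.56 to 1.89 from leaf 6. chi1 (LOC100276821), a chalcone isomerase of the flavonoid pathway, showed a smaller excess of 0.75 to 1.17 over leaf 4 and 0.47 to 0.73 over leaf 6, also past the test in every treatment. Its control medians were 44.4 CPM in leaf 4, 76.8 in leaf 5 and 37.3 in leaf 6.

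sm2 (gene ID 100272786), salmon silks2, encodes a rhamnosyltransferase of the synthesis of maysin, a flavone glycoside of silks. It was above leaf 4 by 1.92, 2.13 and 2.11, and above leaf 6 past the test only in HAC 2 h (0.92, adjusted p = 0.033), a difference that was lost without leaf 5 HAC 2 h library 6. Laccase-17 (LOC100193025), of the laccases that polymerize lignin, was a gene of both young leaves. Its control medians were 1.42 CPM in leaf 4, 33.1 in leaf 5 and 19.9 in leaf 6, and in the treated leaves it exceeded leaf 4 by 6.45, 4.28 and 6.32 on the log2 scale, while the differences from leaf 6 were 0.74, −0.01 and 0.01 and did not pass. It was the only one of the 8 genes of the lignin list in the table that was among the 100.

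TIP4-4 (LOC542647), an aquaporin of the vacuolar membrane, stood farther above leaf 4 after ZmPep3 than in HAC 2 h. Control medians were 5.97 CPM in leaf 4, 11.7 in leaf 5 and 2.04 in leaf 6. In leaf 5 the medians were 9.05 CPM in HAC 30 min, 3.51 in HAC 2 h and 3.23 after ZmPep3, whereas leaf 4 went from 2.62 CPM in HAC 2 h to 0.150 after ZmPep3. ZmPep3 leaves were lower than HAC 2 h leaves by a log2 difference of −3.84 ± 0.51 in leaf 4 (SE, adjusted p = 6.36e-09) and −1.69 ± 0.48 in leaf 6 (adjusted p = 0.00723), against −0.41 ± 0.39 in leaf 5 (adjusted p = 0.473). The leaf 5 and leaf 4 responses differed by 3.43 ± 0.64 (adjusted p = 0.000138).

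The gene listed as calmodulin (LOC100280399), the calcium sensor protein, was higher in every leaf after ZmPep3 than after 2 h of HAC. Leaf 4 medians were 6.27, 4.8 and 5.75 CPM in controls, HAC 30 min and HAC 2 h and 29.3 CPM after ZmPep3, when leaf 5 stood at 43.1 and leaf 6 at 22.0 CPM. It rose in ZmPep3 against HAC 2 h in all 3 leaves, by 2.65 ± 0.37 in leaf 4 (SE, adjusted p = 2.89e-08), 1.53 ± 0.35 in leaf 5 (adjusted p = 0.000468) and 1.19 ± 0.35 in leaf 6 (adjusted p = 0.00877). Leaf 5 exceeded leaf 4 by 3.04 in HAC 30 min and by 0.37 after ZmPep3 (adjusted p = 0.367). In leaf 5 it fell by 1.32 ± 0.35 between HAC 30 min and HAC 2 h (adjusted p = 0.00425). tub4 (LOC542417), a beta-tubulin of the cytoskeleton, was above leaf 4 by 1.18 to 1.74 in every treatment and above leaf 6 in both HAC groups (1.08 and 0.42) but not after ZmPep3 (0.23, adjusted p = 0.259). sfp1 (gene ID 541917) was above both leaves in HAC 2 h (1.78 over leaf 4, 1.44 over leaf 6) and after ZmPep3 (2.17 and 1.20), and above neither past the test in HAC 30 min (0.69, adjusted p = 0.0633, and 0.60, adjusted p = 0.122).

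How the 100 genes moved between treatments was compared among treated libraries, since the controls had chosen them. In leaf 5, 1 gene rose and 23 fell from HAC 30 min to HAC 2 h, where 7.03% of all genes rose and 8.35% fell. Leaf 5 HAC 2 h library 6 was the lowest of its group for 43 of the 100 genes, and without it 1 gene rose and 16 fell. Those that fell with all libraries fitted included adh1, calmodulin, tub4 (−0.47 ± 0.16, SE, adjusted p = 0.0385) and LOC100274228 (−0.95 ± 0.17, adjusted p = 1.13e-05). LOC100274228 also fell in leaf 4 and leaf 6. The fall of tub4 did not pass without leaf 5 HAC 2 h library 6 (−0.39) or without the filter on low counts (−0.44). LOC100281439, with a leaf 5 control mean of 789 CPM, was the riser, by 0.72 ± 0.20 (adjusted p = 0.00759). Its rise did not pass when only the groups of the contrast were fitted (0.73). With the replicate number as a block, 3 genes rose in leaf 5 instead of 1. From HAC 30 min to HAC 2 h in leaf 4, none rose and 10 fell (1.49% and 2.11% of all genes), but leaf 4 HAC 30 min libraries 5 and 6 were the highest of their group for 53 and 35 genes, and without both the counts were 1 and 5. In leaf 6, 3 rose and 8 fell (10.1% and 10.5%).

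After ZmPep3, against HAC 2 h, 6 genes were higher and 6 lower in leaf 5 (14.6% and 11.6% of all genes). Without leaf 5 ZmPep3 libraries 1 and 6 the count was 23, of which 8 were higher. In leaf 4, 3 were higher and 32 lower (15.2% and 16.0%), and in leaf 6, 12 were higher and 3 lower (12.8% and 6.44%). LOC100272496 was higher in leaf 5 (1.90 ± 0.37, adjusted p = 4.75e-05) and leaf 6 (2.53 ± 0.39, adjusted p = 4.02e-07), and its leaf 5 libraries, at 35.5 to 61.3 CPM, lay above all 6 of HAC 2 h, at 2.11 to 22.0 CPM. LOC100279540 was lower in leaf 5 (−1.04 ± 0.23, adjusted p = 0.00035) and more so in leaf 4 (−2.54 ± 0.25, adjusted p = 1.15e-12).

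The contrast of ZmPep3 2 h with HAC 2 h, which a change under either agent can move, was tested for a difference between leaves. It differed between leaf 5 and leaf 4 in 9 of the 100 genes, each with the less negative or more positive value in leaf 5, where 4.32% of all genes differed in that direction and 2.70% in the other. These were TIP4-4, adh1, LOC100382230, LOC100284687, LOC100281201, LOC100279540, LOC103629798, LOC100384215 and LOC103627453. Some depended on the processing. LOC100384215 did not pass in several alternatives, among them DESeq2 size factors (1.25) and the replicate number as a block (1.274). LOC100382230 was lost when only the groups of the contrast were fitted (3.39). LOC103629798 was lost without leaf 5 ZmPep3 libraries 1 and 6 (0.92), and adh1 without leaf 5 HAC 2 h library 6 (0.91). Between leaf 5 and leaf 6, adh1 was more positive in leaf 5 and LOC100281201 more negative (0.254% and 0.336% of all genes). LOC100281201 had leaf 5 values of 113, 129 and 168 CPM in HAC 2 h (lowest, median, highest) and 164, 175 and 233 CPM after ZmPep3. Its leaf 4 median went from 96.6 to 40.4 CPM and its leaf 6 median from 20.4 to 68.1 CPM. The log2 difference was −1.13 ± 0.22 in leaf 4 (SE, adjusted p = 2.08e-05) and 1.78 ± 0.22 in leaf 6 (adjusted p = 1.29e-09). For the step from HAC 30 min to HAC 2 h the count of genes that differed between leaf 5 and leaf 4 depended on the libraries. Laccase-17 and LOC100285692 had the more negative value in leaf 5 than in leaf 4 (2.28% of all genes, and none of the 100 against 1.69% in the other direction), and neither difference passed without leaf 5 HAC 2 h library 6. Without leaf 4 HAC 30 min libraries 5 and 6 the count was 7 instead of 2, and with DESeq2 it was 5. adh1 had the more negative value in leaf 5 than in leaf 6 (0.630%, and none against 0.583% in the other direction).

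**Figure D4:**
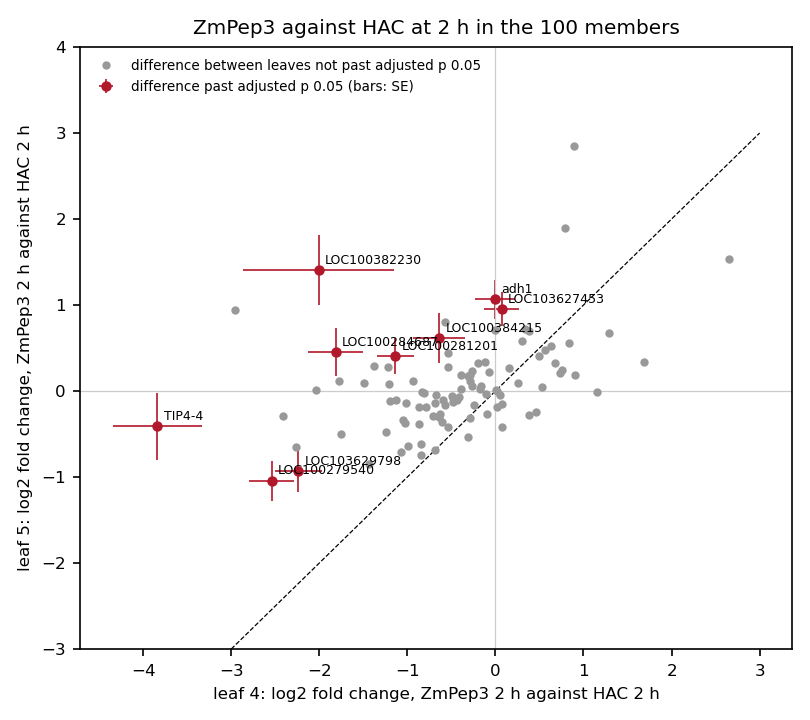
Log2 difference between ZmPep3 2 h and HAC 2 h in leaf 5 (y) against leaf 4 (x) for the 100 genes. The dashed line marks equal values. Red points with SE bars are the 9 genes whose responses differed between the leaves in the fit of all 72 libraries. All 9 lie above the line, with TIP4-4 at −3.84 in leaf 4 and −0.41 in leaf 5.

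Against the controls, which chose the genes and so can only be described, the median log2 difference of the 100 in leaf 5 was −0.26 in HAC 30 min, −0.42 in HAC 2 h and −0.42 after ZmPep3, with −0.01, −0.03 and −0.06 over all genes. The 3 comparisons share their controls. In leaf 4 the medians were 0.09, −0.26 and −0.72 and in leaf 6 0.10, −0.11 and 0.09. Summed over the 100 genes, leaf 5 libraries held 6609 to 12459 CPM in controls, 4972 to 9335 in HAC 30 min, 5270 to 9987 in HAC 2 h and 5264 to 10165 after ZmPep3, and these ranges overlap. Leaf 4 controls held 2163 to 3949 CPM and leaf 6 controls 2497 to 3092 CPM.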

How the data were processed

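Messenger RNA of 72 leaf libraries, 6 in each of 12 groups, was sequenced on a DNBSEQ instrument per the labels. The authors deposited expected counts per gene (RSEM estimates, not always whole) and FPKM, made with Bowtie2 and RSEM on B73 RefGen_v4 per the submitters' processing notes; versions, annotation and strand use are not given in the sources used here. Of the deposited count values above 0, 11.09% were not whole (tolerance 1e-06) and were rounded. The deposited FPKM, scaled to length and depth by the authors, served only to repeat the ranking. Median depth was 29911694 counts, which limits the precision of genes near 1 CPM. RNA from near-identical gene copies could be split by the counting.

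Tests used edgeR 4.0.16 in R 4.3.3 (filterByExpr, TMM, robust quasi-likelihood, 12 group means) on 25558 genes with Benjamini-Hochberg adjustment over all of them; DESeq2 1.42.0 was an alternative. Checks on simulated data came first. Since controls chose the members, only contrasts among treated libraries were tested. Correlations used log2 CPM with a prior count of 2 and 100000 permutations within groups.

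Members and gene lists were chosen with earlier results of these data known. The correlations with ys1, their limit of 0.8, the list of iron genes and the alternative without leaf 5 HAC 2 h library 6 were chosen after the data were seen. Fixed lists (jasmonate and volatile synthesis, defence, lignin, transcription factors and others) could be matched only by symbol, because the RefSeq table (Zm-B73-REFERENCE-NAM-5.0) holds no descriptions. Among them the lignin list held Laccase-17, the list of transcription factors matched BMY1 by the letters of a synonym alone and is not used, and the others held no member. A rule on rank, size of change and listed names named 60 members; irl1, chi1, tub4, LOC103627453, LOC100384215 and LOC541975 were described after their values were seen. Libraries are numbered as in the labels. Of 396 pairs of same-numbered libraries 23 had correlated deviations over 0.1 (median 0.00925), so the numbers were not taken as pairs.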

Additional observations from a re-analysis of the deposited data

Results flagged for a closer look

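Libraries standing apart from the other 5 of their group were looked for in 156 groups (12 genes and the summed CPM of the 100), and 10 were found, where chance gives about 1 in 20. For asn2 they were leaf 4 control library 1 at 2.343 CPM (others 0.1007 to 0.922), leaf 5 control library 6 at 84.52 (others 8.433 to 28.7), leaf 6 HAC 2 h library 5 at 9.358 (3.893 to 5.918), leaf 4 ZmPep3 library 6 at 12.04 (0.776 to 4.106) and leaf 5 ZmPep3 library 2 at 29.34 (10.63 to 17.19). For adh1, leaf 5 control library 3 was at 79.61 CPM (others 26.64 to 43.92), and for irl1, leaf 5 HAC 30 min library 3 was at 186.4 (69.33 to 95.01). Leaf 4 control library 4 was high for TIP4-4 at 12.7 CPM (3.938 to 6.895) and for tub4 at 19.26 (10.28 to 13.39), and leaf 5 HAC 2 h library 5 was high for calmodulin at 30.48 (4.212 to 13.82).

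In the fit of all 72 libraries, responses that differed between leaves by a test of the difference numbered 14, given here as log2 differences. For ZmPep3 against HAC 2 h, leaf 5 minus leaf 4 was 3.43 for TIP4-4, 3.42 for LOC100382230, 2.27 for LOC100284687, 1.54 for LOC100281201, 1.5 for LOC100279540, 1.31 for LOC103629798, 1.26 for LOC100384215, 1.07 for adh1 and 0.88 for LOC103627453. Leaf 5 minus leaf 6 was 1.41 for adh1 and −1.37 for LOC100281201. For HAC 2 h against HAC 30 min, leaf 5 minus leaf 4 was −2.16 for Laccase-17 and −0.92 for LOC100285692, and leaf 5 minus leaf 6 was −1.49 for adh1.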

How the results depend on the processing

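Among the comparisons that passed for the described members of the 100, no direction was reversed under the alternatives run. Genes outside the 100, the iron genes among them, were not put through the alternatives. Without leaf 5 ZmPep3 libraries 1 and 6, 23 genes rather than 12 changed between ZmPep3 and HAC 2 h in leaf 5, and without leaf 4 HAC 30 min libraries 5 and 6, 6 rather than 10 changed between the HAC times in leaf 4 and 7 rather than 2 differed between leaf 5 and leaf 4. When only the groups of a contrast were fitted, leaf 6 counts were 21 (HAC times, otherwise 11) and 24 (ZmPep3, otherwise 15), the HAC time difference was 0 (leaf 4) and 2 (leaf 6), and the ZmPep3 difference from leaf 6 was 1 instead of 2; 18 calls of named genes were lost, adh1 and calmodulin between the HAC times in leaf 5 among them. The HAC time difference of leaf 5 and leaf 4 was 1 without the filter, 5 with DESeq2 and 0 without leaf 5 HAC 2 h replicate 6, and that of leaf 5 and leaf 6 was 4 with DESeq2. Without that library, the ZmPep3 difference from leaf 4 held 7 genes instead of 9. With the replicate number as a block, counts against leaf 4 were 92, 90 and 93 and against leaf 6 75, 67 and 63, and the HAC time difference from leaf 6 was 3 instead of 1; the libraries share only a number. The causes were not tested. Ranking by other minimums, constants, medians, FPKM or fewer libraries returned 73 to 98 of the 100 genes; at a minimum of 20 CPM it was 73.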

Other observations

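Some of the genes had their highest value in a library where ys1 was low. Leaf 5 control library 6 held the highest of the 6 values for 21 of the 100 genes and leaf 5 HAC 30 min library 3 for 16, shares near the 1 in 6 of an average library. In leaf 5 control library 6, asn2 (84.5 CPM), LOC107548101 (107.8), LOC100284905 (84.2), irl1 (228) and LOC100284302 (32.0) each had the highest value of the 6 controls, with ys1 at 421 CPM, the second lowest. In leaf 5 HAC 30 min library 3, irl1 (186), LOC107548101 (63.3), LOC100284905 (83.0), LOC100284302 (28.5) and sfp1 (18.6) were highest, with ys1 at 58.2 CPM, the lowest of that group. Among these, irl1, LOC107548101, LOC100284905 and LOC100284302 were highest in both libraries. The genes were picked out because they were highest there, and no test was made.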
